A study of Mus musculus with 6 samples.

Results

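Galectins are small lectins that bind beta-galactoside sugars on glycoproteins and glycolipids, and Lgals3bp is a secreted glycoprotein that galectins bind. The 4 galectin genes Lgals1, Lgals3, Lgals8 and Lgals9 were chosen by symbol along with Lgals3bp, which makes 5 of the 23366 genes in the table. RNA-seq had been performed on cortical tissue of 6 adult mice, with 1 library per mouse. Of these, 3 were microglia-depleted mice at d10, named A4, A5 and A6, and 3 were non-depleted littermates, named A1, A2 and A3. The comparison asks how cortical RNA differs once microglia have been removed and have grown back.

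Depleted mice were CX3CR1-CreERT2+/- iDTR+/-, and control mice were CX3CR1-CreERT2+/- without the iDTR allele, all on a C57BL/6 background. Tamoxifen was given first, so that Cre recombinase made under the CX3CR1 promoter switched on the diphtheria toxin receptor, and diphtheria toxin later killed the cells that carried it. Other CX3CR1-expressing cells that live as long as microglia can be hit too, and microglia had repopulated the brain by d10, so the depleted cortex is not a cortex without microglia. Whether the control mice also received the toxin is not stated in the methods, so the toxin and the depletion cannot be told apart in this design.

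Galectins lack a signal peptide, leave the cell by an unconventional route and crosslink sugar chains at the cell surface, while inside the cell they recognise sugars that become exposed on the inner face of broken lysosomes and endosomes. In the brain, galectin-3 is made mainly by activated microglia and infiltrating macrophages, and galectin-1 by astrocytes, vascular cells and some neurons. Galectin-9 and Lgals3bp are known to be inducible by interferons in several cell types.

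Levels are FPKM, fragments per kilobase of transcript scaled to the library total, which allow genes to be compared per length. Fold changes are differences of mean log2(FPKM + 1), depleted minus control, which understate the difference for genes with low FPKM. In counts over a list, higher and lower refer to the sign of this log2 fold change, and a list is led by the gene with the highest mean FPKM over the 6 mice. Tests were run with limma over the 14385 genes whose mean over the mice reached 0.5 FPKM, with p-values adjusted by Benjamini-Hochberg and called at 0.1. All p-values are for a difference between the groups, with the mouse as the unit. For each gene, limma takes the same spread for both groups. Where values of single mice are listed, controls are in the order A1, A2, A3 and depleted mice in the order A4, A5, A6. The spacing of the lowest FPKM values gave about 14.6, 20.5 and 18.3 M fragments for the control libraries A1 to A3 and 13.7, 7.14 and 11.2 M for the depleted libraries A4 to A6. For A5, 10.7 M fitted the spacing equally well. Weaker fits lay at 29.5 M for A1, 36.9 M for A3, 27.6 M for A4 and 22.4 M for A6. These depths are inferred from TMM-normalized values and are not read counts. By the first estimates, a single fragment on a 1 kb transcript is worth 0.0488 FPKM in the deepest library, A2, and 0.140 FPKM in the shallowest, A5.

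Several libraries stood apart in values other than those of the galectins. A4 had the highest value of the 6 mice in 26.8% of the genes tested, and A5 had 7144 genes at 0 against 5834 in A1. Xist, which is made from the inactive X chromosome, was at 4.74 FPKM in A3 and between 30.9 and 46.7 FPKM in the other 5 mice. The summed level of 4 Y-linked genes was 5.56 FPKM in A4 and at most 0.16 FPKM in the others, although A4 also had Xist at 30.9 FPKM. Fold changes of the members and medians of the lists are therefore given with and without A4. Markers of brain cells were checked, which do not tell cortex from other brain regions. The 10 neuronal markers summed to between 3679 and 4437 FPKM in every mouse, led by Snap25. The 9 astrocyte markers summed to between 1046 and 1275 FPKM, led by Aldoc.

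Lgals3bp, Lgals9 and Lgals3 were higher on average in the depleted cortex, by 3.80-fold, 2.19-fold and 4.44-fold in mean FPKM, while Lgals8 and Lgals1 differed by less than the SD of the depleted mice. All 5 genes had their highest value in A4, against 26.8% of all genes tested. In limma, 0 of the 5 passed the threshold after adjustment, which 4 of all genes tested did (0.0278%). At an unadjusted p-value under 0.05, 3 of the 5 were higher in depleted mice (4.79% of all genes tested) and 0 were lower (5.74%). Of these, Lgals3 reached the filter of 0.5 FPKM only through the depleted mice, as its control mean was 0.35 FPKM. The 3 depleted mice lay above the 3 control mice for 2 of the 5, Lgals3bp and Lgals9 (8.21% of all genes tested), and below them for 0 of the 5 (9.38%). Leaving out a mouse cannot make separate groups overlap, and without A4 the share in this direction was 14.5% of the 14308 genes then tested.

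**Figure D1:**
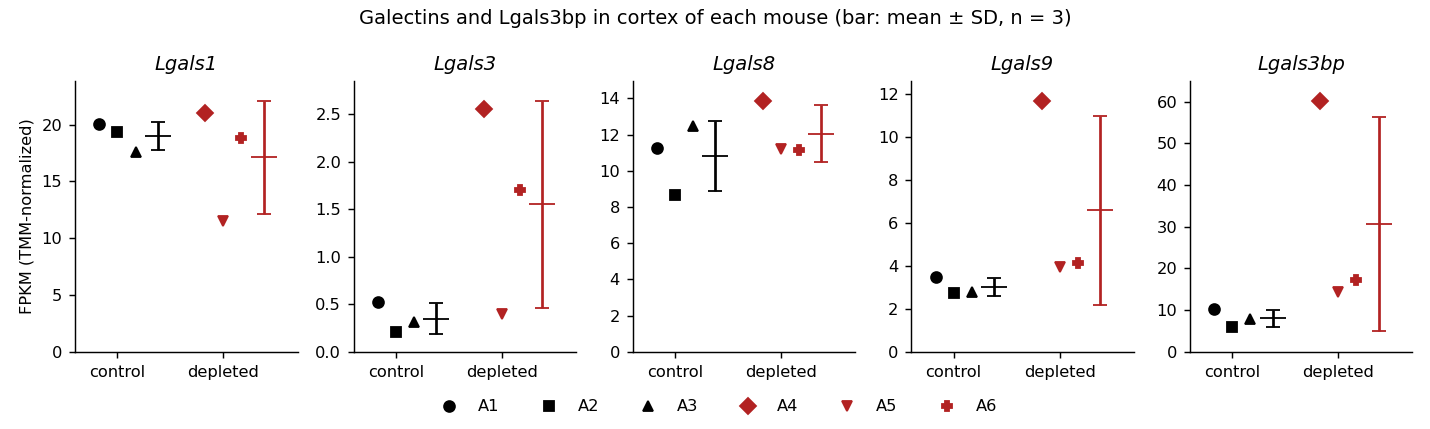
FPKM of each gene (vertical axes, each starting at 0) in control (black) and depleted (red) mice, with 1 symbol per mouse and the mean ± SD (n = 3) beside the points. A4, the red diamond, is the highest mouse in all 5 panels, and A5, the red triangle, lies among or near the control mice except for Lgals3bp and Lgals9, where it is above them, and Lgals1, where it is the lowest.

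Lgals3bp, also known as Mac-2 binding protein, is a secreted protein with a scavenger receptor cysteine-rich domain that binds galectin-3 and galectin-1. Its gene lies on the minus strand of chromosome 11, from 118392751 to 118402092 in GRCm38. The control mice had 10.2, 6.06 and 7.87 FPKM, and the depleted mice had 60.1, 14.3 and 17.3 FPKM. A4 was far above all others, A5 and A6 were close to each other, and even the lowest depleted mouse was above the highest control mouse. The mean level was 8.03 ± 2.06 FPKM in the controls and 30.6 ± 25.6 FPKM after depletion (SD, n = 3 each), so that the spread within the depleted group was almost as large as its mean. Relative to the control mean, A4 was at 7.48-fold, A5 at 1.78-fold and A6 at 2.15-fold. The log2 fold change was 1.54 (standard error 0.46; unadjusted p = 0.00952, adjusted p = 0.378 in limma), and the exact two-sided permutation test gave p = 0.1, its lowest possible value with 3 animals per group. Without A4 the mean of the depleted mice was 15.8 FPKM, 1.96-fold the control mean, with a log2 fold change of 0.91 (95% interval from 0.49 to 1.34, unadjusted p = 0.00122, adjusted p = 0.167 in limma).

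Lgals9 encodes galectin-9, a tandem-repeat galectin with a pair of sugar-binding domains on 1 chain, which binds the receptor Tim-3 (Havcr2). It lies on the same strand of chromosome 11 as Lgals3bp, from 78962974 to 78984946. It had 3.49, 2.74 and 2.79 FPKM in the controls against 11.7, 3.93 and 4.15 FPKM after depletion. The groups did not overlap, but A5 and A6 lay just above the control mice and only A4 was far from them. The mean level was 3.01 ± 0.419 FPKM in the controls and 6.59 ± 4.41 FPKM after depletion (SD, n = 3 each). The log2 fold change of 0.78 (standard error 0.33, unadjusted p = 0.0439, adjusted p = 0.464 in limma) had an exact permutation p of 0.1. Leaving out A4 took it to 0.34 (95% interval from 0.025 to 0.65, adjusted p = 0.353 in limma), a ratio of means of 1.34.

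The promoters of these 2 genes are shown because both were higher in every depleted mouse. RefSeq promoters (250 bases before to 50 after the start) were found for 4 of the 5 genes and not for Lgals1. GENCODE places the start of both genes further upstream than RefSeq does, so the stretches printed are the parts of these promoters that lie before the GENCODE gene, with at most 150 bases, 5′ to 3′ on the strand of the gene, from GRCm38.p6. That of Lgals3bp is chr11:118402093-118402209 and that of Lgals9 is chr11:78984947-78985096, both on the minus strand.
Lgals3bp: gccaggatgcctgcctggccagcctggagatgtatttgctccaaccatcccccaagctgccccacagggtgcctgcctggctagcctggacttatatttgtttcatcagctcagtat
Lgals9: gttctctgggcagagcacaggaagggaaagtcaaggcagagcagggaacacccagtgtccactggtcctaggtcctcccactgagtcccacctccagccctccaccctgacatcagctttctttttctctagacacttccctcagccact
Motif matches in them are not reported here, and the binding of factors was not measured.

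Lgals3 encodes galectin-3, the only chimera-type galectin, with a single sugar-binding domain and a long tail through which it forms oligomers. The gene lies on the plus strand of chromosome 14, from 47367751 to 47386160 in GRCm38. Its level was low, at 0.53, 0.21 and 0.31 FPKM in the controls and at 2.56, 0.40 and 1.7 FPKM after depletion. A4 and A6 were well above every control mouse, whereas A5 was below A1, so the groups overlapped. At 0.140 FPKM for 1 fragment on 1 kb, the value of A5 rests on few fragments. The mean level was 0.35 ± 0.164 FPKM in the controls and 1.55 ± 1.09 FPKM after depletion (SD, n = 3 each), a ratio of 4.44. The control mean was below the filter of 0.5 FPKM, so Lgals3 was tested only through its level in the depleted mice. Its limma p-values are therefore descriptive. The log2 fold change was 0.82 (standard error 0.32, unadjusted p = 0.0307, adjusted p = 0.438 in limma; exact two-sided permutation p = 0.2), and it depends on the pseudocount, as it was 1.63 with a pseudocount of 0.1. It was 0.53 without A4 (95% interval from -0.12 to 1.19, adjusted p = 0.469 in limma) and 1.21 without A5.

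Lgals8 encodes galectin-8, a tandem-repeat galectin that marks damaged vesicles and recruits the autophagy receptor Calcoco2. On chromosome 13 it runs from 12439415 to 12464944 on the minus strand, and its last 875 bases overlap Heatr1 on the other strand. Whether the counting used strand is not given in the sources used here, so reads from that overlap cannot be assigned with certainty. Lgals8 was at 11.3, 8.69 and 12.5 FPKM in the controls and at 13.9, 11.2 and 11.1 FPKM after depletion. A5 and A6 lay within the control range, and A4 alone was above it. The log2 fold change was 0.15 (95% interval from -0.18 to 0.48, adjusted p = 0.728 in limma), 0.056 without A4 and 0.017 without A2, the lowest control mouse.

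Lgals1 encodes galectin-1, a prototype galectin that works as a dimer of a single small domain, and lies on the plus strand of chromosome 15 from 78926725 to 78930465. It had 20.03, 19.4 and 17.6 FPKM in the controls and 21.0, 11.5 and 18.8 FPKM after depletion. A5, the shallowest library, stood well below the other 5 mice, which lay close together. The log2 fold change was -0.18 (95% interval from -0.62 to 0.26, adjusted p = 0.756 in limma), -0.34 without A4 and 0.064 without A5, so that its direction rested on A5. For Lgals1, Lgals3, Lgals9 and Lgals3bp, 0 of the 75-base windows of their transcripts occurred in another annotated gene, and for Lgals8 16 of 3870 did (0.413%).

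**Figure D2:**
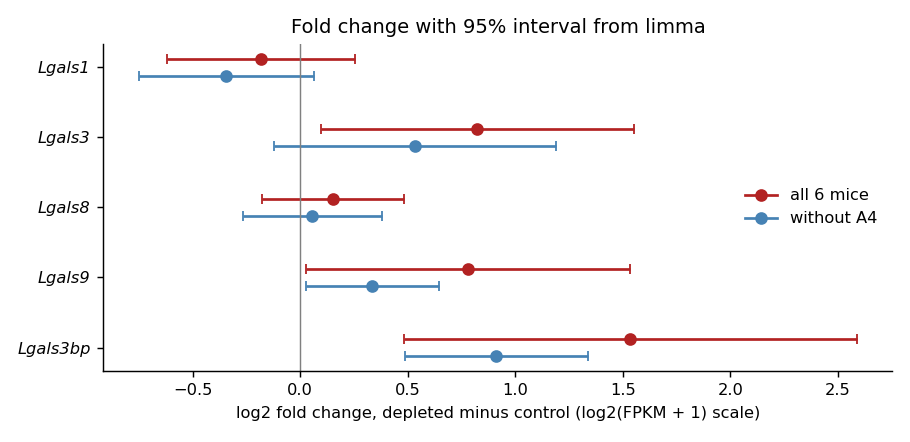
Log2 fold change of each gene (horizontal axis, depleted minus control on the log2(FPKM + 1) scale) with its 95% interval from limma, for all 6 mice (red) and without A4 (blue). Leaving out A4 moves Lgals3bp from 1.54 to 0.91 and Lgals9 from 0.78 to 0.34 with both intervals still above 0, moves the interval of Lgals3 across 0, and leaves those of Lgals8 and Lgals1 across 0.

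In the control cortex, Lgals1 had the highest mean level of the 5 genes at 19.0 FPKM, followed by Lgals8 at 10.8, Lgals3bp at 8.03, Lgals9 at 3.01 and Lgals3 at 0.35 FPKM. The ranges of Lgals8 and Lgals3bp over the control mice overlapped, although Lgals8 was the higher of both in each mouse, and those of all other neighbours in this order did not. In the depleted cortex the mean FPKM of Lgals3bp, 30.6, was the highest, followed by Lgals1 at 17.1, Lgals8 at 12.1, Lgals9 at 6.59 and Lgals3 at 1.55. Without A4 the means were 15.8 FPKM for Lgals3bp and 15.2 FPKM for Lgals1, and in A6 Lgals1 was above Lgals3bp. Only Lgals9 and Lgals3 were neighbours whose ranges over the mice did not overlap. Lgals3 thus had the lowest level of the 5 in both groups.

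Of the 7 other galectin family genes in the table, 2 passed the filter on low values. Lgalsl, a galectin-like gene without sugar binding, had a mean of 25.7 FPKM in control and 24.95 FPKM in depleted mice (log2 fold change -0.041, adjusted p = 0.902 in limma; -0.11 without A4). Lgals4, which encodes a tandem-repeat galectin of the gut, was between 0.79 FPKM in A4 and 2.52 FPKM in A5 (log2 fold change 0.14, adjusted p = 0.871 in limma; 0.42 without A4). Its near-identical copy Lgals6 was listed at 0 in 5 mice and at 2.33 FPKM in A4, the mouse with the lowest Lgals4, and the sum of both was 3.12 FPKM there against 1.91 to 2.52 FPKM in A5 and A6 and 1.15 to 1.92 FPKM in the control mice. How reads were divided between these copies is uncertain, so neither is given a direction. Lgals2, Lgals7, Lgals12 and Grifin were below the filter, with at most 1.04 FPKM in any mouse.

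The partners of the galectins were measured in the same libraries. Of 12 receptors and ligands that galectins bind, 10 were tested, of which 7 were higher and 3 lower on average, with a median log2 fold change of 0.034 (0.017 without A4) against -0.0085 over all genes tested. Trem2, a microglial receptor reported to bind galectin-3, was the only one with an unadjusted p-value under 0.05 or with groups that did not overlap. It was at 12.95, 10.8 and 11.5 FPKM in the controls and at 19.1, 13.2 and 19.5 FPKM after depletion (log2 fold change 0.50 with a standard error of 0.15, or 0.43 without A4; adjusted p = 0.378 in limma). Like Lgals3, it was higher in A4 and A6 than in A5. Mertk, a receptor for the uptake of dying cells, had the lowest log2 fold change of the partners at -0.26 (-0.16 without A4; adjusted p = 0.498 in limma). Lamp1, the lysosomal membrane protein with the highest level, was between 148 and 170 FPKM in every mouse.

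Galectins read sugar chains that the branching enzymes of the Golgi apparatus build, and 14 genes of this synthesis were all tested. Of these, 6 were higher and 8 lower on average, with a median log2 fold change of -0.028 (-0.0050 without A4). None had an unadjusted p-value under 0.05 in limma. Their log2 fold changes ran from -0.22 for the sugar transporter Slc35a2 (-0.13 without A4) to 0.15 for Gcnt2 (0.20 without A4). In Mgat1, which opens the path to branched N-glycans, the groups did not overlap, at 18.8, 19.1 and 19.3 FPKM in the controls and 15.2, 18.5 and 16.8 FPKM after depletion (log2 fold change -0.18, or -0.11 without A4; adjusted p = 0.537 in limma). Of 13 genes of the response to damaged lysosomes, in which galectin-3, galectin-8 and galectin-9 act as sensors, 11 were tested, with 7 higher, 4 lower and a median of 0.032 (0.024 without A4). Tax1bp1, an autophagy receptor, had the highest log2 fold change at 0.21 (0.13 without A4; adjusted p = 0.465 in limma). Its groups did not overlap, nor did those of Map1lc3b, which was lower in depleted mice (-0.14, or -0.096 without A4). Sqstm1, with the highest level, was between 229 and 287 FPKM.

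**Figure D3:**
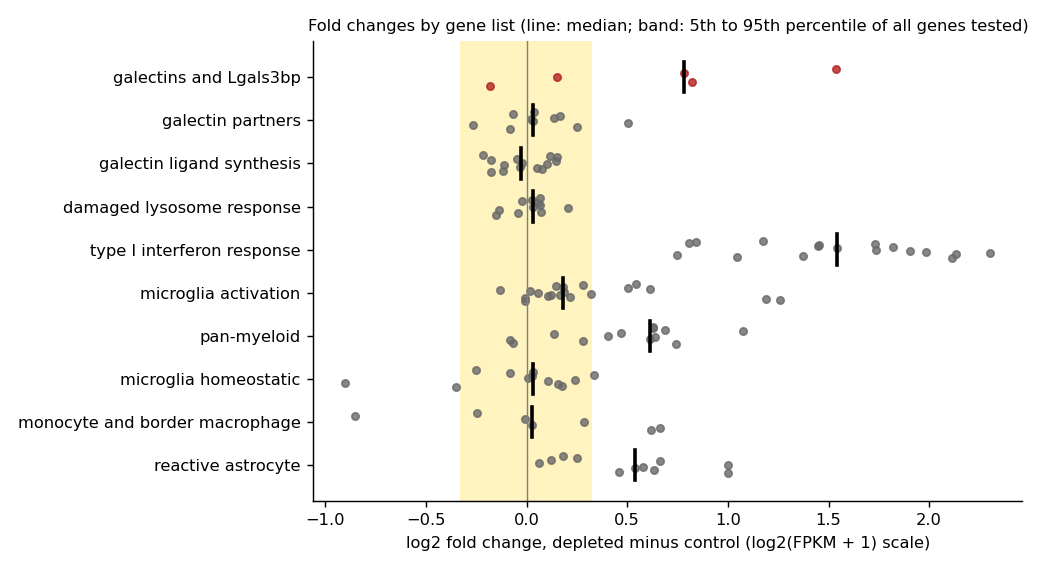
Log2 fold change (horizontal axis, depleted minus control on the log2(FPKM + 1) scale) of the tested genes of each list, with 1 point per gene, a black line at the median and a band from the 5th to the 95th percentile of all genes tested (-0.33 to 0.33). Lgals3bp, Lgals9 and Lgals3 lie right of the band, as do all 17 interferon response genes, while the partner, sugar synthesis and lysosome lists have medians of 0.034, -0.028 and 0.032 within it.

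The members were set beside the interferon response in each mouse. The 17 genes of the type I interferon response list, chosen with earlier results of these data known, were all higher on average in depleted mice. In 16 of them the depleted mice lay above the control mice without overlap, against 8.21% of all genes tested. The median log2 fold change of the 17 genes was 1.54 (0.94 without A4). Their summed level was 90.9, 68.0 and 81.1 FPKM in the controls and 622.5, 157 and 170 FPKM after depletion, and the list was led by Ifi27l1. Relative to the control mean the sum was 7.78-fold in A4, 1.97-fold in A5 and 2.13-fold in A6, where Lgals3bp was 7.48-fold, 1.78-fold and 2.15-fold, Lgals9 3.89-fold, 1.31-fold and 1.38-fold, and Lgals3 7.31-fold, 1.14-fold and 4.86-fold. Lgals3bp and Lgals9 were thus about equal in A5 and A6, as the interferon sum was, whereas Lgals3 was higher in A6 than in A5.

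The 13 pan-myeloid markers, which microglia and other macrophages share, summed to 257, 210 and 243 FPKM in the controls and to 500.3, 280 and 370 FPKM after depletion. Of these, 11 were higher on average, with a median log2 fold change of 0.61 (0.36 without A4). In 7 of the 13 the depleted mice lay above the control mice without overlap, against 8.21% of all genes tested. C1qb had the highest mean over the 6 mice, although Ctss was above it in the mean of the depleted mice. None of the 13 was at 0 in all mice. As with Lgals3, their sum was higher in A6 than in A5. In whole cortex, more cells of a type and more RNA per cell cannot be told apart. Per 100 FPKM of these markers, Lgals3bp was at 3.96, 2.89 and 3.24 in the controls and at 12.01, 5.10 and 4.67 after depletion, and the groups did not overlap. The divisor was itself higher in every depleted mouse, so a gene with equal FPKM in both groups is lower after depletion on this scale. Lgals9 on the same scale was at 1.36, 1.31 and 1.15 in control and 2.34, 1.40 and 1.12 in depleted mice, so that A6 was below every control mouse. Lgals3 was at 0.206, 0.10 and 0.128 in control and 0.512, 0.143 and 0.459 in depleted mice, and A5 again lay within the control range. Lgals1 was at 7.80, 9.23 and 7.24 in control and 4.19, 4.11 and 5.08 in depleted mice, and Lgals8 at 4.39, 4.15 and 5.13 in control and 2.77, 3.99 and 3.01 in depleted mice. This scaling was chosen after the values were seen.

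Genes of microglia activation and of homeostatic microglia had smaller medians. Of 20 activation genes, 19 were tested, with 16 higher, 3 lower and a median log2 fold change of 0.18 (0.095 without A4). Clec7a, a receptor of activated microglia, had the highest log2 fold change of these at 1.26 (adjusted p = 0.310 in limma), with 2.75, 0.74 and 1.87 FPKM after depletion and at most 0.12 FPKM in the controls. It reached the filter of 0.5 FPKM only through the depleted mice, so its limma p-value is descriptive. Like Lgals3, it was higher in A4 and A6 than in A5. The 12 homeostatic microglia genes had 8 higher, 4 lower and a median of 0.029 (-0.031 without A4), and their sum was 133, 109 and 121 FPKM in the controls and 138, 114 and 128 FPKM after depletion.

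Markers of other cells that can make galectins were counted too. The 11 monocyte and border macrophage markers summed to 10.4, 11.1 and 10.2 FPKM in the controls and to 20.1, 10.6 and 9.54 FPKM after depletion, led by S100a4, with 7 tested, 4 higher, 3 lower and a median log2 fold change of 0.028 (0.017 without A4). In A4, S100a4 made up 10.3 FPKM of this sum, while Pf4, a border macrophage marker, was lowest there at 0.12 FPKM against 1.38 to 3.23 FPKM in the controls. Of the 10 neutrophil and lymphocyte markers in the table, Ms4a1 was at 0 in every mouse, 3 were tested and all 3 had a log2 fold change below 0, with a median of -0.20 (-0.20 without A4). For S100a8, whose highest value was 4.98 FPKM in A5, the mean FPKM was higher in depleted mice, and its log2 fold change without A4 was 0.061. The 12 reactive astrocyte genes summed to 129, 102 and 129 FPKM in the controls and to 407, 164 and 164 FPKM after depletion, led by Gfap, and all 11 tested were higher on average, with a median of 0.54 (0.16 without A4). The part of these marker lists in the levels of the 5 genes was not tested.

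The remaining marker lists had median log2 fold changes of -0.12 for astrocytes (-0.089 without A4), -0.27 for oligodendrocytes (-0.25), -0.014 for neurons (0.027), 0.12 for endothelial cells (0.15), -0.073 for mural cells (-0.11) and -0.064 for meningeal and perivascular fibroblasts (-0.20). Choroid plexus markers had a median of -0.44 (-0.62 without A4) and summed to 185, 327 and 170 FPKM in the controls against 72.2, 46.9 and 66.2 FPKM after depletion, led by Ttr. A2, with the highest sum of these, was also the lowest mouse for Lgals3, Lgals8, Lgals9 and Lgals3bp, and the part of the choroid plexus markers in their levels was not tested.

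Among 13222 genes compared, each averaging 1 FPKM or more, those most like each member over the 6 mice were found. The measure was the root-mean-square difference of their centred log2(FPKM + 1) profiles. For Lgals3bp these were Ifitm3 (0.087), Bst2 (0.14), Gbp6 (0.15), I830012O16Rik (0.16) and Mx2 (0.17). Ifitm3 was at 15.4, 9.99 and 14.8 FPKM in the controls and at 94.0, 24.6 and 28.0 FPKM after depletion, in the same order of mice as Lgals3bp. For Lgals9 they were Trim30d (0.092), Bcl2a1b (0.098), Ube2l6 (0.10), Irgm2 (0.10) and Eif2ak2 (0.11). For Lgals3 they were Ly86 (0.13), Lag3 (0.13), Cyba (0.14), Aif1 (0.17) and Parp12 (0.18), of which Ly86 was at 9.63, 7.08 and 9.12 FPKM in control and 22.8, 8.12 and 14.4 FPKM in depleted mice. Genes most like Lgals8 included Apex1 (0.046), Zbtb12 (0.055), Psmb3 (0.057) and Pilra (0.058), and those most like Lgals1 were Rpa3 (0.054), Ccdc153 (0.063), Dnajc4 (0.076), Dync2li1 (0.076) and Gar1 (0.076). None of these genes passed after adjustment in limma, and the likeness is a description of 6 mice.

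**Figure D4:**
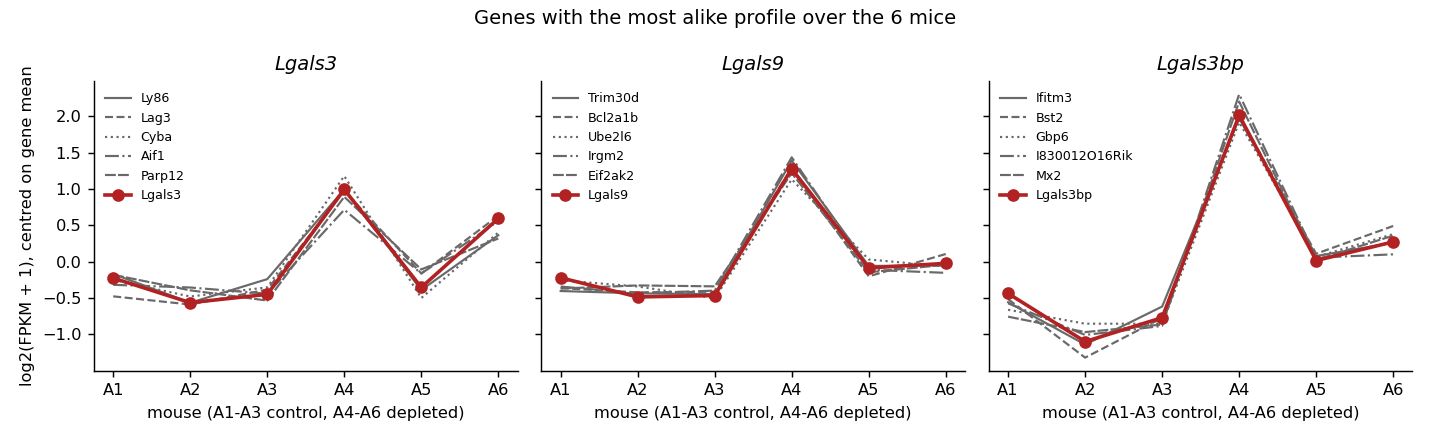
Centred log2(FPKM + 1) (vertical axis) in each of the 6 mice (horizontal axis) for Lgals3, Lgals9 and Lgals3bp (red) and the 5 genes most like each (grey, by line style). All lines peak at A4, those beside Lgals3 are higher at A6 than at A5, and those beside Lgals9 and Lgals3bp differ less between A5 and A6.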

How the data were processed

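Cortical RNA of 3 control and 3 depleted mice was compared. According to the methods and the submitters' processing notes, the authors made poly(A)-selected libraries and used TopHat, RSEM and DESeq with build mm9; versions and annotation are not given in the sources used here. The deposited table holds FPKM that the authors had normalized by TMM and given to 2 decimals. Counts were not used here.

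Values were taken to log2(FPKM + 1). Genes whose mean reached 0.5 FPKM were fitted with limma 3.58.1 in R 4.3.3 (lmFit, eBayes with a trend, no covariate), and p-values were adjusted over all genes tested. Mean FPKM of each member was also given an exact permutation test, two-sided, which cannot go below 0.1 here. It was computed in Python 3.11.15 with numpy 2.4.6, and pandas 2.3.3 and matplotlib 3.10.9 were also used. The limma step and the depth estimate, from 1693 single-transcript genes, were first tested on simulated data. Positions came from GENCODE M21 on GRCm38, matched by symbol and not read from the authors' build.

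The members and lists were chosen with earlier results of these data known. Named genes were the members, the other galectin genes, the genes of each list with the highest and lowest log2 fold change and the highest mean FPKM, up to 4 genes per list whose groups did not overlap, and the 5 genes most like each member; a few of these are not reported here. Sequences were taken from RefSeq. Alternatives were another pseudocount, other filters and scalings, eBayes without a trend, array weights and leaving out each mouse.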

Additional observations from a re-analysis of the deposited data

How the results depend on the processing

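The direction of Lgals3, Lgals8, Lgals9 and Lgals3bp and their side of the threshold of 0.1 held under every alternative tried, with log2 fold changes from 0.53 to 1.63, 0.017 to 0.25, 0.34 to 1.02 and 0.91 to 1.91. The adjusted p-values in limma ran from 0.133 to 0.892, 0.601 to 0.986, 0.261 to 0.892 and 0.167 to 0.892. Lgals1 ran from -0.34 to 0.064 with 1 mouse left out and changed direction without A5, with adjusted p-values from 0.452 to 0.940 over the alternatives; the cause was not tested. Lgals3 was not tested with a minimum mean of 1 FPKM, since its own mean is lower. It was 1.63 with a pseudocount of 0.1 and 1.21 after rescaling to TPM, where values are larger and the pseudocount weighs less. The number of DE genes, 4, was 2 for eBayes without a trend, 20 with array weights, and from 2 (without A1) to 29 (without A5) with 1 mouse left out, or 22 without A4 and 8 without A6. None of the 5 genes passed in any of these. Depth limits the precision of Lgals3, whose values are low, and of A5, the shallowest library by either estimate. No paired analysis was possible because the labels give no replicate number that the groups share.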
